A study of Homo sapiens with 12 samples.

Results

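Of the 44498 YTHDF1 peaks deposited for wild-type H1 cells, 15168 (34.1%, exact binomial 95% interval 33.6 to 34.5%) lay far from protein-coding genes and free of Polycomb features. They were chosen by position: none shared a base with an RNF2 peak or an H2AK119ub island, and the midpoint of each lay more than 10 kb from every RefSeq protein-coding gene body (hg38). H1 is an established human embryonic stem cell line. Chromatin immunoprecipitation and sequencing (ChIP-seq) had been done in 12 libraries, with 2 replicates in each of 6 groups. In H1 cells given an shRNA against YTHDF1, called knockdown cells here, YTHDF1 was precipitated and an input was sequenced. In untreated H1 cells, called wild-type here, YTHDF1, RNF2, H2AK119ub and input were profiled. The authors had merged the replicates of each antibody into 1 peak list, so no spread between replicates exists and no comparison below has a test. Intervals cover counting error only, and the p, q and fold values are the authors' own for each peak. Library depth was unknown.

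YTHDF1 is a cytoplasmic reader of N6-methyladenosine (m6A), a methyl mark on RNA that writer enzymes place mostly within GGAC-like sequences. It binds the marked RNA through its YTH domain and is best known for promoting translation. RNF2 is the ubiquitin ligase at the core of Polycomb repressive complex 1 (PRC1). The complex places ubiquitin on a lysine of histone H2A to give H2AK119ub, a mark of repressed developmental genes. Sequence far from coding genes holds enhancers, long non-coding RNA (lncRNA) genes, repeats and the satellite arrays of centromeres. The peaks described here lie in such sequence and share no base with a PRC1 feature, though some lie close to one.

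RefSeq sequences (GRCh38.p14) of gene starts, from 250 bases before to 50 bases after, were compared with the peaks on all chromosomes but 8, which was not used here. Of the 14209 far PRC1-free peaks on these chromosomes, 61 (0.429%) touched 65 such windows of 62 genes, all of them lncRNA genes, and the peak summit lay inside the window in 30 of the 65. The 4 windows under the strongest of these peaks are shown 5′ to 3′ on the gene's strand, with the bases covered by the YTHDF1 peak in capitals. They lie at chr6:29529156-29529455 (plus strand), chr3:65175289-65175588 (minus strand), chr10:6987629-6987928 (minus strand) and chr20:33148102-33148401 (plus strand).
LINC01015: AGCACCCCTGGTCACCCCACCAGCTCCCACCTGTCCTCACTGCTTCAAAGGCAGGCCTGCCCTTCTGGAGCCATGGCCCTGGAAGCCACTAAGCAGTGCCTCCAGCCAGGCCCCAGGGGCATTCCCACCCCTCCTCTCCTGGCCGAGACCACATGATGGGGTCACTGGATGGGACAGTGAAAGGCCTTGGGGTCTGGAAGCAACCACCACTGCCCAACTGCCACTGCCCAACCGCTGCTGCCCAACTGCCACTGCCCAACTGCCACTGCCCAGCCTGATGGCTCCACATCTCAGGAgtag
LOC105377127: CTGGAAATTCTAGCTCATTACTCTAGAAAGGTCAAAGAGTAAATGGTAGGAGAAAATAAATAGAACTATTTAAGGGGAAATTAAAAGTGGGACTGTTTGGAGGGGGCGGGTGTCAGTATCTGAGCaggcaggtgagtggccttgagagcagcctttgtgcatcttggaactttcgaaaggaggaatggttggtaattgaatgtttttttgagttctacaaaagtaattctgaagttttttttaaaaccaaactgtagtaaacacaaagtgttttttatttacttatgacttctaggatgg
LOC105376387: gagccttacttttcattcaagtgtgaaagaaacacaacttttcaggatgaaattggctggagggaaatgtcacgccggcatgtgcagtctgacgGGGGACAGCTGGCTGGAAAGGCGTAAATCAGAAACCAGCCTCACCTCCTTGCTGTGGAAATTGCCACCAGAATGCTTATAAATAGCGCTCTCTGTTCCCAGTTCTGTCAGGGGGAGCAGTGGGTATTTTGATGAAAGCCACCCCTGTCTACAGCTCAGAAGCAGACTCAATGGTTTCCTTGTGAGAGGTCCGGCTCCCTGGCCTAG
LOC105372714: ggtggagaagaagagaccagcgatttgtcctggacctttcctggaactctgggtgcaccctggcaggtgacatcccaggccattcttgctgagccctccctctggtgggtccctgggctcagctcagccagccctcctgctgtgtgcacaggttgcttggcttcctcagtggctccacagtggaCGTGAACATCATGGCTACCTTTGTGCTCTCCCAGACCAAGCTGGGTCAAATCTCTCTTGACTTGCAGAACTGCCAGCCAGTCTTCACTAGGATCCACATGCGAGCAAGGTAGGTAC

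The peak over the LINC01015 start was the strongest of the 61, at 3.98-fold enrichment and a −log10 q of 5.24, and it covered 296 bases of the window. The peaks at LOC105377127, LOC105376387 and LOC105372714 had 3.93-fold, 3.79-fold and 3.51-fold enrichment and covered 125, 206 and 116 bases. These starts differed in base composition. GC content was 63.7% at LINC01015, 37.3% at LOC105377127, 50.7% at LOC105376387 and 57.3% at LOC105372714. Across the 65 windows the median GC content was 47.3% (quartiles 42.3 and 53.0%), against 43.0% (37.7 and 49.3%) in the 4772 windows of other far, PRC1-free non-coding genes. All 35116 windows in the table had a median of 58.7%.

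The motif GGACT, the commonest core of m6A sites in RNA, was searched on both strands (as GGACT or AGTCC). It was present in 20 of the 65 windows (30.8%, interval 19.9 to 43.5%), against 1896 of the 4772 without a peak (39.7%, 38.3 to 41.1%) and 44.2% of all windows. Among the 4 shown, only LOC105377127 held it, at position 90 counted from the 5′ end. A match in genomic DNA is a run of letters and does not show a methylated RNA. In all, 1.34% (1.04 to 1.71%) of the 4837 far, PRC1-free non-coding windows carried a peak. The share for windows of the same length elsewhere in such sequence was not computed, so neither a shortage nor an excess at starts can be read from it.

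Hairpins of 3 microRNAs also lay under far PRC1-free peaks, of 332 hairpins in such sequence. The share for equally short stretches elsewhere in that sequence was not computed, so the count does not mark hairpins as favoured sites. MIR17, the first hairpin of the miR-17-92 cluster within MIR17HG, encodes microRNAs that promote proliferation. A 3.09-fold peak (chr13:91350350-91350713, −log10 q 2.18) covered its whole hairpin and none of the other 5 hairpins of the cluster. MIR2117 lay under a 3.38-fold peak (chr17:43444649-43445222, −log10 q 3.08) that also reached the start of its host gene MIR2117HG. MIR8079 lay under a 2.80-fold peak near the list's lower limit. The mature sequences of MIR17 and MIR2117 are shown with the seed, bases 2 to 8, in capitals, because the seed sets which transcripts a microRNA pairs with.
hsa-miR-17-5p: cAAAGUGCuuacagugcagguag
hsa-miR-17-3p: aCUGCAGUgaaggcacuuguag
hsa-miR-2117: uGUUCUCUuugccaaggacag

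Most far PRC1-free peaks were weak, and as weak as PRC1-free peaks inside coding genes. Their median fold enrichment was 2.86 (quartiles 2.80 and 3.07), against 2.85 (2.80 and 3.07) for the 14309 PRC1-free peaks inside coding genes and 2.95 (2.81 and 3.11) for the 12831 peaks with RNF2 or H2AK119ub. Median widths were 388, 392 and 478 bp in the same order. A −log10 q of at least 2 was attained by 34.6% (33.8 to 35.3%) of the far peaks, 35.0% (34.3 to 35.8%) of the peaks inside coding genes and 44.0% (43.1 to 44.9%) of the peaks with PRC1 features, beside 37.5% of the whole list. With the limit set at 3 they came to 5.86%, 5.73% and 12.1%, with 7.63% of the whole list. At 4 or more, 231 far peaks were left (1.52%, 1.33 to 1.73%), against 192 inside coding genes (1.34%, 1.16 to 1.54%) and 610 with PRC1 features (4.75%, 4.39 to 5.14%), beside 2.39% of the whole list. Of the 12831 peaks with PRC1 features, 2400 lay over 10 kb from coding genes, as the far PRC1-free peaks do. These 2400 had a median fold of 2.94 and a median width of 428 bp. At limits of 2, 3 and 4 their shares were 37.7% (35.7 to 39.6%), 8.17% (7.10 to 9.34%) and 2.96% (2.32 to 3.72%). The strength of a YTHDF1 peak came from the same list that chose the members, so these values are a description.

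**Figure D1:**
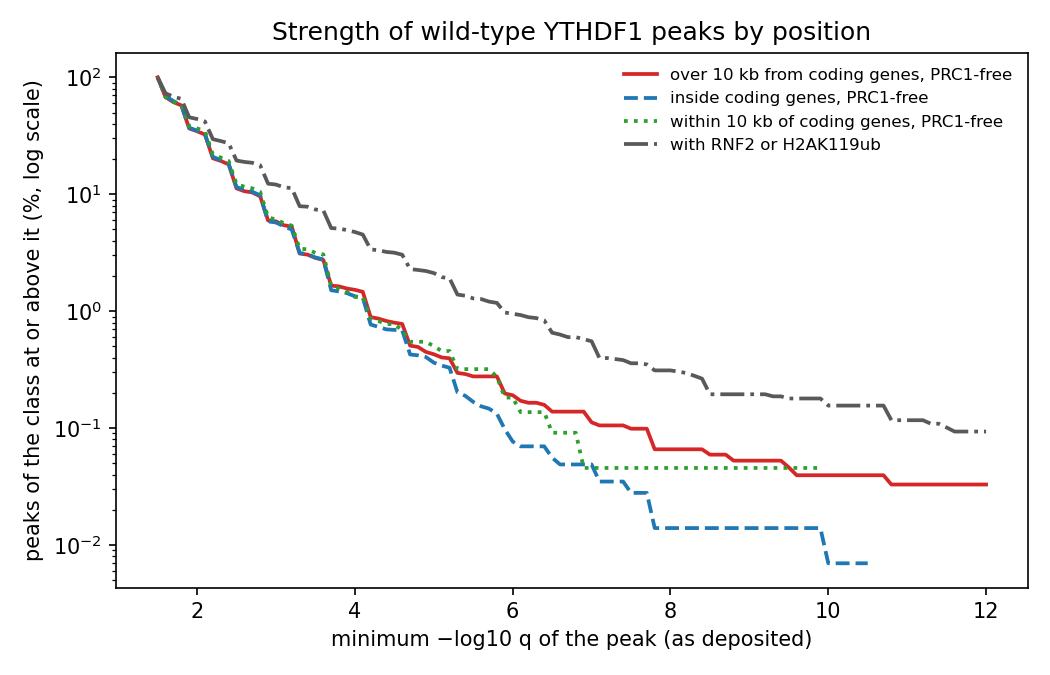
Share of wild-type YTHDF1 peaks (vertical axis, percent, log scale) whose −log10 q is at or above the value on the horizontal axis, for 4 classes of position. The curves of far and intragenic PRC1-free peaks lie close together at 34.6% and 35.0% for a −log10 q of 2, and that of peaks carrying RNF2 or H2AK119ub lies above both, at 44.0%.

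Many fold values fell on a few steps. The commonest fold, 2.81, was shared by 2445 far PRC1-free peaks (16.1%), and the next steps upward were 2.95, 3.09 and 3.23, each 0.140 apart. If fold is read as MACS2 defines it, the scaled number of stacked fragments plus 1 over the background plus 1, the commonest step stands for 19 fragments over a background of 5.99, with a scale of 0.98. These numbers were fitted to the commonest step. Poisson −log10 p values computed from them lay within 0.0011 of the deposited ones over 8 steps, which held 5995 of the far peaks (39.5%; fold within 0.0005 of a step). On that reading a difference of 1 fragment separates neighbouring steps.

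The few far PRC1-free peaks of highest fold stood apart from this mass. Of the 6 with at least 5-fold enrichment, all were on the short arm of chromosome 21, where ribosomal RNA gene units lie. The strongest, at 29.0-fold and a −log10 q of 219, spanned 8987914 to 8988815 and touched no RefSeq gene. It ranked 4 in the whole YTHDF1 list by −log10 p. A 17.4-fold peak at 8214521 to 8214992 (−log10 q 103) and a 7.85-fold peak at 8213031 to 8213909 lay in RNA45SN2, a 45S precursor unit of ribosomal RNA, and both touched the part that encodes 28S ribosomal RNA. A 7.85-fold peak at 8255272 to 8255921 and a 5.47-fold peak at 8253790 to 8254519 touched RNA18SP5, an 18S pseudogene. A 5.19-fold peak at 8397297 to 8397985 lay in a further unit, RNA45SN3.

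Ribosomal RNA units are near-identical copies, so reads cannot be placed firmly in one of them. RNA45SN2 held 3 YTHDF1 peaks and RNA45SN3 held 2, all of them far and PRC1-free, and neither unit touched a knockdown YTHDF1, RNF2 or H2AK119ub interval. A PRC1 feature was close, however: the 17.4-fold and 7.85-fold peaks in RNA45SN2 lay 4.61 and 5.69 kb from one. The 5.19-fold peak in RNA45SN3 lay 21.8 kb from one. RNA45SN1 (chromosome 21, 8433222 to 8446572) held none from any list. None was counted in RNA45SN4, annotated at 122273 to 135645 on chromosome 22. Whether peaks could be called at that position was not checked, so this unit cannot be read as lacking them.

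The other 4 of the 10 strongest peaks by −log10 p lay in long intervals between coding genes. Peaks at 25920094 to 25920351 and 25389871 to 25390200 on chromosome 17, in a 5.59 Mb interval between coding genes, had 1.63-fold and 3.18-fold enrichment. A 2.13-fold peak at 60636773 to 60637057 on chromosome 9 lay in an interval of 17.96 Mb, and a 3.92-fold peak at 18886672 to 18887044 on chromosome 18 in one of 6.01 Mb. All 4 had a −log10 q between 8.44 and 9.59, though the 1.63-fold and 2.13-fold peaks were below the median fold of all far peaks, 2.86. Among the 10 far peaks at a −log10 q of 8 or more, 3 lay more than 1 Mb from any coding gene, against 12 of 231 (5.20%) at 4 or more and 536 of all 15168 (3.53%).

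The peaks ranged widely in their distance from coding genes. The median distance was 104 kb (quartiles 37.7 and 283 kb), and 51% lay more than 100 kb away. By the gene annotation used, the farthest were 2 peaks on the long arm of chromosome Y, with 2.59-fold enrichment each. They lay 31230 and 31130 kb from CDY1, the nearest coding gene it placed there. Whether it places genes shared by chromosomes X and Y on both was not checked, so these 2 distances may be too long. Next came a 3.09-fold peak at 10716873 to 10717201 on chromosome 22, which lay 4811 kb from the olfactory receptor gene OR11H1. At the 10 kb limit itself the peaks did not stand out. The 3 just inside lay 10005, 10008 and 10014 bp from BPGM, TNKS and SLC25A38 at 2.70-fold, 3.62-fold and 3.50-fold. The 3 just outside lay 9993, 9993 and 9991 bp from TMPRSS11A, FLG and CAMK1G at 2.95-fold, 3.09-fold and 2.62-fold.

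The number of peaks per length of sequence fell with distance from coding genes. Far, PRC1-free sequence made up 1521 Mb, or 49.3% of the chromosome extent, and held 9.97 peaks per Mb (9.82 to 10.1). PRC1-free sequence inside coding genes held 13.1 per Mb (12.9 to 13.3). Assembly gaps and other stretches without any gene or peak bear on these values: 29 such stretches of over 1 Mb summed to 189 Mb. With these and the sex chromosomes left out, a choice made after seeing the data, the densities were 12.4 (12.2 to 12.6) in far sequence and 13.8 (13.5 to 14.0) inside coding genes.

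On that second measure the density was 15.8 per Mb (15.03 to 16.53) at 10 to 20 kb from a coding gene and 15.2 at 20 to 50 kb. It was 14.4 at 50 to 100 kb, 12.9 at 100 to 200 kb, 10.8 at 200 to 500 kb and 8.38 (8.01 to 8.75) beyond 500 kb. The classes within 50 kb lay above the density inside coding genes and the 3 classes beyond 100 kb below it, with intervals that did not overlap that of coding genes. The interval of the class at 50 to 100 kb (13.87 to 14.98) did overlap it. Over all far sequence the fall was steeper, to 14.6 per Mb at 10 to 20 kb and 4.59 beyond 500 kb. Base composition and mappability could not be measured without a genome sequence, and their part in the fall was not tested.

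**Figure D2:**
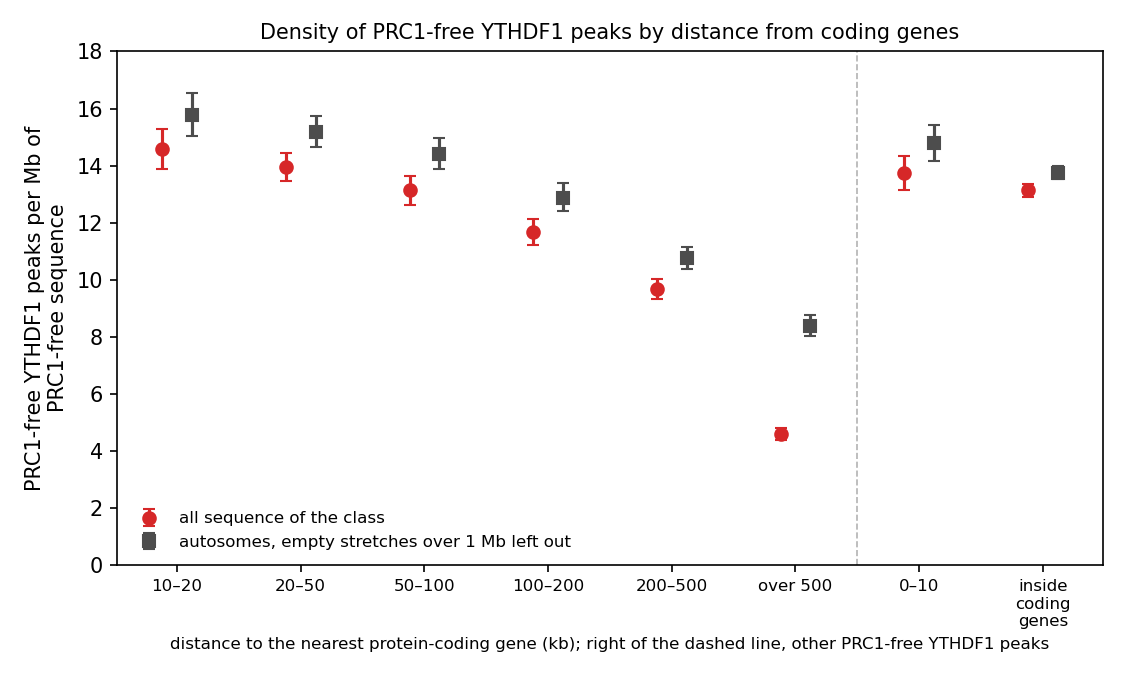
PRC1-free YTHDF1 peaks per Mb of PRC1-free sequence (vertical axis) by distance to the nearest protein-coding gene in kb (horizontal axis), with exact Poisson 95% intervals. On autosomes without empty stretches (squares) the density of far peaks falls to 8.38 beyond 500 kb, and the 2 classes right of the dashed line show peaks within 10 kb of coding genes (14.8) and inside them (13.8).

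The peaks also lay nearer to PRC1 features than the sequence they came from. The rule excluded overlap with RNF2 or H2AK119ub but set no distance. The median distance, edge to edge, to the nearest PRC1 feature was 56.3 kb (quartiles 16.1 and 178 kb), and 1174 peaks lay more than 500 kb from one. By midpoint, 2592 peaks (17.1%, 16.5 to 17.7%) lay within 10 kb of a PRC1 feature, against 10.5% of the bases of far PRC1-free sequence. On autosomes without empty stretches the shares were 17.1% of midpoints and 12.9% of bases. Measured by the nearest edge of the peak, 2638 peaks (17.4%) did. The density there was 17.3 per Mb (16.3 to 18.3) at 1 to 5 kb and 17.5 at 5 to 10 kb. It was 15.4 at 10 to 50 kb, 13.4 at 50 to 100 kb and 9.53 (9.29 to 9.78) beyond 100 kb. The class within 1 kb held 11.4 per Mb (10.1 to 12.8). The rule removed peaks that touched a PRC1 feature, which takes midpoints from this class, but how much of its lower density this makes up was not tested. Whether this fall and the one with distance from genes are separate was not tested.

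**Figure D3:**
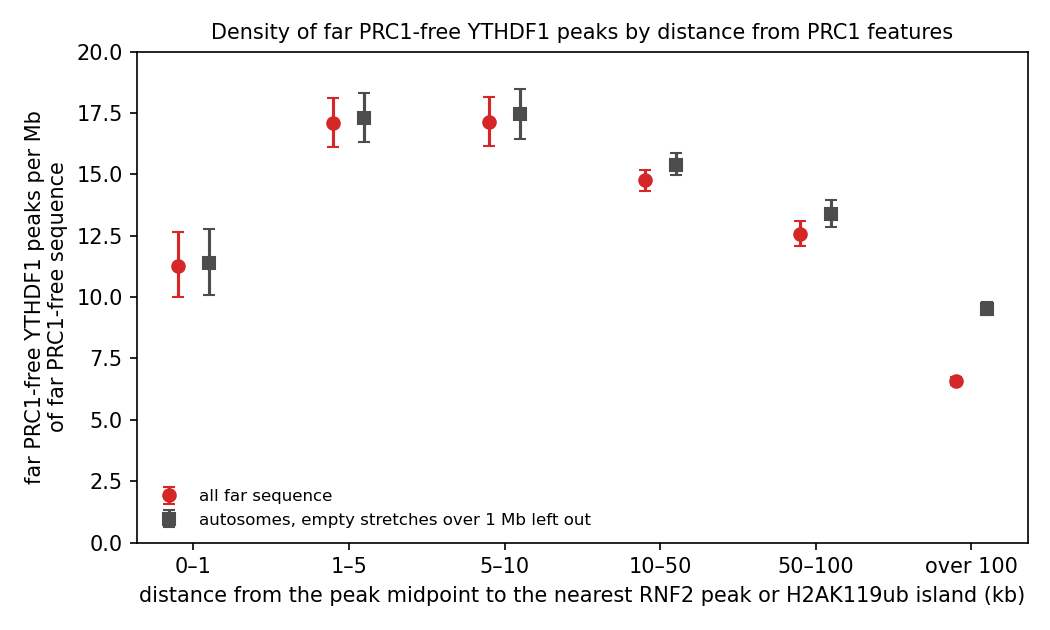
Far PRC1-free YTHDF1 peaks per Mb of far PRC1-free sequence (vertical axis) by distance from the peak midpoint to the nearest RNF2 peak or H2AK119ub island in kb (horizontal axis), with exact Poisson 95% intervals. On autosomes without empty stretches the density is 17.3 at 1 to 5 kb and 9.53 beyond 100 kb.

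The peaks were spread over all autosomes and nearly missing from the sex chromosomes. Empty stretches left out, the density on single autosomes ran between 6.90 per Mb on chromosome 22 and 14.0 on chromosome 1, with a median of 12.1. Chromosome X held 32 far PRC1-free peaks, or 0.363 per Mb (0.248 to 0.512), against 12.4 on the autosomes, and chromosome Y held 2. The whole YTHDF1 list showed the same, with 0.596 peaks per Mb of chromosome X against 15.5 per Mb of autosome. The other marks differed less, with 2.70 against 10.05 RNF2 peaks per Mb and 3.51 against 14.9 H2AK119ub islands per Mb. Mapped reads per chromosome were not at hand. Their part in the difference, and that of the number of copies of each chromosome in the cells, was not tested.

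**Figure D4:**
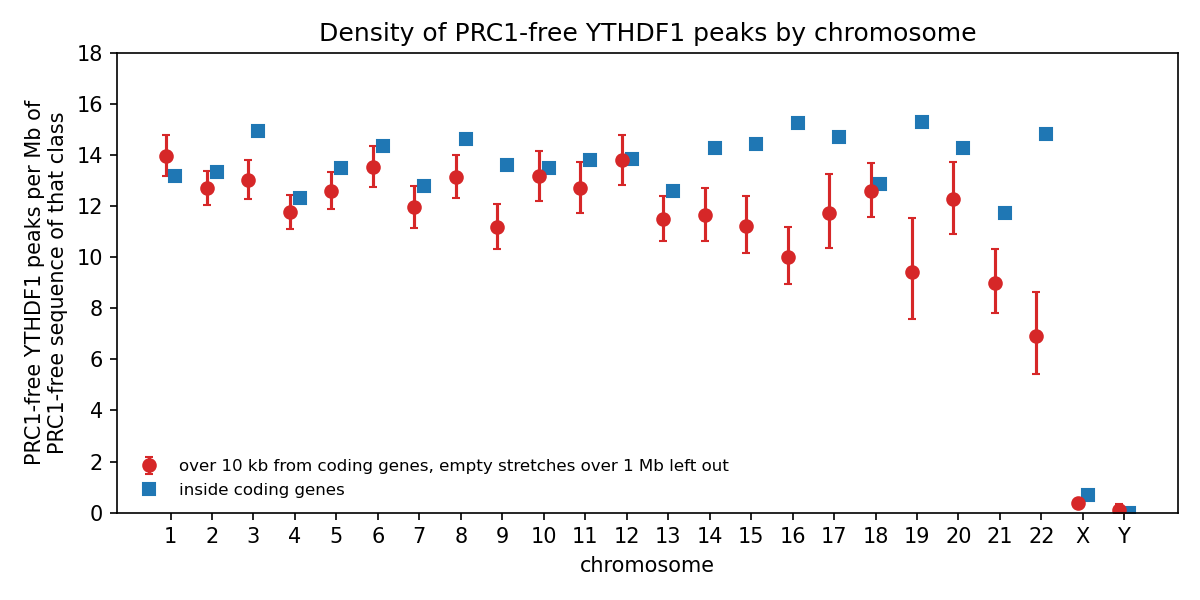
PRC1-free YTHDF1 peaks per Mb of PRC1-free sequence (vertical axis) for each chromosome (horizontal axis), for sequence over 10 kb from coding genes with exact Poisson 95% intervals (circles) and for coding genes (squares). The far peaks lie between 6.90 and 14.0 per Mb on autosomes and at 0.363 per Mb on chromosome X.

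Most of the peaks had no other far PRC1-free peak within 10 kb. Other YTHDF1 peaks were not counted as neighbours, and the spacing that random placement would give was not computed. The median gap to the nearest other far PRC1-free peak was 28.1 kb (quartiles 10.3 and 66.6 kb), and 3685 peaks (24.3%, 23.61 to 24.99%) had another within 10 kb. Joined at gaps of up to 10 kb, they formed 13186 runs, of which 11483 were single peaks and 6 held 5 peaks, the largest number. The 3 most compact of these 6 were on chromosome 5 (136513086 to 136530786, nearest to TRPC7, a cation channel gene), chromosome 16 (23806261 to 23824353, 11.8 kb from PRKCB, a protein kinase C gene) and chromosome 7 (65796966 to 65820820, nearest to VKORC1L1, a vitamin K epoxide reductase gene). Their peaks ran between 2.66-fold and 2.95-fold, 2.78-fold and 2.95-fold, and 2.70-fold and 3.51-fold. The 5 widest far peaks measured 1876 to 2115 bp, and none of them exceeded 3.09-fold enrichment.

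As 1 class, non-coding genes held a share of the peaks close to their share of the sequence. Of the 15168 peaks, 4280 (28.2%, 27.5 to 28.9%) touched a non-coding RefSeq gene, against 18.4% of the whole YTHDF1 list, much of which lies inside coding genes. By midpoint the share was 27.8% on autosomes, against 27.3% of the autosomal far PRC1-free sequence without empty stretches. For lncRNA genes it was 26.1% of midpoints against 24.4% of that sequence. Pseudogenes took 0.978% of midpoints against 1.23% of sequence, and transcribed pseudogenes took 0.826% against 1.59%. A far peak was found in 2677 non-coding genes, 2379 of them lncRNA genes, and 1750 of the 2677 had just 1.

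The non-coding genes with the most far PRC1-free peaks were long. DIRC3, a lncRNA gene of 506 kb on chromosome 2 (217284019 to 217790443), held 13, up to 3.50-fold, which is 26.7 per Mb of its far PRC1-free sequence (14.2 to 45.7). LOC105373592 on the same chromosome held 13 over 531 kb, at 25.05 per Mb (13.3 to 42.8). LOC124902439 on chromosome 10 held 12 over 820 kb, at 14.7 per Mb (7.61 to 25.7). The density over all autosomal far sequence was 12.4 per Mb, and these genes were picked for their counts. Another 7 held 11 each, among them LOC105370504 and LOC105378178 on chromosome 14, at 27.4 (13.7 to 48.98) and 12.5 per Mb (6.23 to 22.3). SOX2-OT is one of these 7 and was picked out after its value had been seen: it is the lncRNA gene of 686 kb in which the pluripotency gene SOX2 lies, and its 11 peaks, at 17.4 per Mb (8.69 to 31.2), did not exceed 2.98-fold.

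A list of 13 genes known for RNAs of embryonic stem cells or of the nucleus was looked up, of which RefSeq classes 12 as lncRNA genes and TUNAR as coding. Of these, 10 had bases more than 10 kb from coding genes and 1 carried a far PRC1-free peak. That gene was NEAT1, whose RNA builds paraspeckles, with a 2.70-fold peak at 65434892 to 65435167 on chromosome 11 and a −log10 q of 1.63. In 9 of the 10, an RNF2 or H2AK119ub interval touched the gene. The pluripotency-associated LINC-ROR, MEG3 and MALAT1 each had 1 YTHDF1 peak, none of them in the far PRC1-free set. LINC00458 had no YTHDF1 peak and no PRC1 feature.

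The coding genes nearest to the most peaks border wide intergenic intervals. GBE1, the glycogen branching enzyme, and LRFN5, a synaptic adhesion molecule, were each nearest to 33 peaks over 2.44 and 2.35 Mb of far PRC1-free sequence, which is 13.5 and 14.1 per Mb. The predicted gene LOC105372073 on chromosome 18 was also nearest to 33, at 15.4 per Mb. AGA, a lysosomal enzyme, and PIK3C3, the class III phosphoinositide 3-kinase, were each nearest to 28 (13.9 and 11.7 per Mb). All autosomal far sequence held 12.4 per Mb.

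By family of the nearest coding gene, densities on autosomes without empty stretches differed. Sequence next to olfactory receptor genes held 57 peaks, or 5.29 per Mb (4.01 to 6.86), against 12.4 over all such sequence. Zinc-finger (ZNF) genes had 199 peaks at 9.21 per Mb (7.97 to 10.6), and cadherin and protocadherin genes had 290 at 9.32 (8.28 to 10.5). T-box, HOX and SOX genes, which encode developmental transcription factors, had 106 peaks at 14.2 per Mb (11.6 to 17.2). The few peaks next to defensin genes (10), keratin-associated protein genes (8) and interferon alpha genes (3) gave intervals too wide to place, at 3.60 to 13.8, 6.16 to 28.1 and 9.66 to 137 per Mb.

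In the knockdown list, few of these sites were called. It held 226 YTHDF1 peaks, of which 46 (20.4%, 15.3 to 26.2%) were free of wild-type PRC1 features and more than 10 kb from coding genes, 40 were PRC1-free inside coding genes and 133 lay on PRC1 features. Of the 46, 5 (10.9%, 3.63 to 23.6%) overlapped a far PRC1-free wild-type peak. Counted the other way, these were 5 of the 15168 wild-type peaks (0.0330%, 0.0107 to 0.0769%), against 1 of 14309 PRC1-free peaks inside coding genes (0.00699%), 66 of 12831 peaks with PRC1 features (0.514%, 0.398 to 0.654%) and 0.162% of the whole wild-type list. The lowest −log10 q was 4.01 in the knockdown list and 1.502 in the wild-type list, so the list sizes do not compare. With both lists held to a −log10 q of 4 or more, far PRC1-free positions held 46 of 226 knockdown peaks (20.4%) and 231 of 1062 wild-type peaks (21.8%). At that limit, 3 of the 231 far peaks (1.3%, 0.269 to 3.75%) overlapped a knockdown peak, against 0 of 192 inside coding genes (upper bound 1.90%) and 35 of 610 with PRC1 features (5.74%, 4.03 to 7.89%), beside 3.58% of all 1062.

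At the 5 shared sites the values differed in both directions. The chromosome 21 site had 3.85-fold enrichment in the knockdown list (8987971 to 8988263) and 29.0-fold in the wild-type list. On chromosome 17 the values at 25920093 to 25920343 were 1.76-fold in the knockdown list and 1.63-fold in the wild-type list. On chromosome 1, at 143254013 to 143254548, they were 3.59-fold and 3.14-fold in the same order, and the nearest coding gene, the histone gene H3-7, lay 648 kb away. The chromosome Y site had 4.57-fold in the knockdown list and 2.59-fold in the wild-type list. The site on chromosome 8, 23.9 kb from SYBU, had 3.85-fold in the knockdown list and 2.45-fold in the wild-type list. No direction can be read from these 5 sites. A site had to pass the higher −log10 q limit of the knockdown list to be among them, and at the chromosome Y and chromosome 8 sites the wild-type −log10 q, 3.24 and 1.58, was below that limit. Replicates had been merged before deposit, so no spread was available, and each fold was set against its own list's background.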

How the data were processed

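Per the labels and the submitters' processing notes, ChIP-seq reads were processed on hg38. The tools named are MACS2 2.1.0 and SICER 1.1, beside Bowtie2 2.2.5, Trimmomatic 0.35, Picard and SAMtools 1.3.1, with no roles or settings. Which caller made which list is not given in the sources used here. All replicates of an antibody were merged: the authors deposited 1 list for each. In the narrow-peak lists the deposited values are a fold enrichment (a ratio), a −log10 p and a −log10 q per peak, and a score that is 10 times the −log10 p, capped at 1000. The H2AK119ub islands carry a deposited score of unstated scale, and their ends were read as naming the last base. Read totals were not at hand, so depth per sample was unknown, and input libraries were not analysed here.

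Members and lists were chosen with earlier results of these data known. Genes were the 59679 of the RefSeq table of GRCh38.p14 on the 22 autosomes, X and Y, of which 20037 code for protein. Sharing meant at least 1 bp. Far sequence was the extent of each chromosome covered by genes or peaks, minus coding genes with 10 kb either side and minus PRC1 features. Shares carry exact (Clopper-Pearson) 95% intervals and densities exact Poisson 95% intervals. The peaks named were the 10 strongest by −log10 p, the 5 farthest from coding genes, the 5 widest, those shared with the knockdown list, the 3 largest runs and the 3 at either side of 10 kb. The genes named were the nearest coding gene of these, the 5 nearest to most peaks and the 5 non-coding genes with most peaks. Of the 5 farthest, 2 are not reported here. The 6 runs of 5 peaks tied, and the 3 most compact are given. Sequence properties planned for the peaks themselves could not be computed without a genome. Interval functions were tested on simulated data. Python 3.11.15, pandas 2.3.3 and scipy 1.17.1 were used.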

Additional observations from a re-analysis of the deposited data

How the results depend on the processing

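The results were recomputed under 12 alternatives, of which 9 were planned and 3 were added after the data had been seen (a −log10 q of at least 4, sequence within 1 Mb of coding genes, and empty stretches left out). Of 97 values, 57 stayed within the interval of the value reported (for the number of peaks, within 1.5 times it) and 40 moved. The order below is the number of far PRC1-free peaks where it moved, their share of the list, median fold, the shares with a −log10 q of at least 2, with a knockdown peak and on a non-coding gene, density per Mb, and the shares within 10 kb of a PRC1 feature and of each other. Only those that moved are given.

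With PRC1 features widened by 1 kb, the share of the list was 33.2% and the share near PRC1 features 16.8%. At 5 kb from coding genes the share of the list was 36.6%, the density 10.2 and the share near PRC1 features 20.1%. At 50 kb these were 23.4%, 8.78 and 11.8%, with 29.6% on non-coding genes and 22.7% near each other. With all RefSeq genes in place of coding genes, 8433 peaks (19.0% of the list) were left, at 8.83 per Mb, with 14.8% near PRC1 features and 21.7% near each other. Their share on non-coding genes is 0 by construction and was not computed. At a −log10 q of at least 2, 5244 peaks were left (31.4% of the list), with a median fold of 3.09, a density of 3.45 and 9.63% near each other. In the better-scoring 50% of each list there were 7968 peaks, with a median fold of 3.07, 69.8% at a −log10 q of at least 2, a density of 5.14, 10% near PRC1 features and 14.7% near each other. At a −log10 q of at least 4, 231 were left (21.8% of the list), with a median fold of 3.79, 1.3% with a knockdown peak, 32.5% on non-coding genes, a density of 0.152, 21.2% near PRC1 features and 3.46% near each other. Fewer peaks by construction set the lower counts, densities and shares near each other.

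On autosomes the density was 11, with YTHDF1 peaks within 1 kb merged it was 9.81 (and 21.8% lay near each other), within 1 Mb of coding genes 11.4 (32.9% of the list) and with empty stretches left out 11.4. Counting an overlap only from 50% of the shorter interval moved none of these values. No paired analysis was possible because replicates were merged before deposit, and no replicate could be left out for the same reason. What depth limits could not be measured, since read totals were unknown.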

Other observations

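Immune receptor loci hold gene segments that RefSeq does not class as protein-coding, and embryonic stem cells do not rearrange them. Their densities of far PRC1-free YTHDF1 peaks rested on few peaks each, with intervals that overlapped one another. The T cell receptor alpha locus TRA (chromosome 14, 21621904 to 22552132) held 6, up to 3.09-fold, and the beta locus TRB on chromosome 7 held 5, up to 3.65-fold. The immunoglobulin loci IGH and IGK held 5 each, up to 3.09-fold and 2.95-fold, and IGL held 1. Per Mb of far PRC1-free sequence this was 6.96 (2.55 to 15.1) for TRA, 11.4 (3.71 to 26.7) for TRB, 3.87 (1.26 to 9.02) for IGH and 3.63 (1.18 to 8.47) for IGK, against 12.4 over all autosomal far sequence. IGL had 2.95 per Mb (0.0747 to 16.4). The gamma locus TRG had 1 peak, at 10.7 per Mb (0.271 to 59.7). The delta locus TRD, which lies within TRA, had 1, at 22.7 per Mb (0.575 to 127). The intervals of IGH and IGK lay below the value for all autosomal far sequence, and those of TRA, TRB, IGL, TRG and TRD held it. The strongest knockdown peak in IGH, at 105624722 to 105625234 over IGHG4, had 5.53-fold enrichment, which was the highest fold among the 46 far PRC1-free knockdown peaks, and it overlapped no far PRC1-free wild-type peak. These loci were picked out after their values had been seen.

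The far PRC1-free knockdown peaks with the strongest −log10 q lay 198 and 413 kb from the nearest coding gene, at 34588105 to 34588356 on chromosome 16 (97.5, 2.28-fold) and 26881271 to 26881542 on chromosome 17 (68.4, 2.57-fold). The transfer RNA gene TRA-TGC2-1 on chromosome 6 (28643445 to 28643516) lay under a far PRC1-free wild-type peak of 3.09-fold.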
